A study of Mus musculus with 16 samples.

Results

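The Wnt ligands of the colon epithelium were followed as 10 genes, Wnt3, Wnt3a, Wnt4, Wnt5a, Wnt6, Wnt7b, Wnt9a, Wnt9b, Wnt10a and Wnt11, of the 54123 genes in the deposited tables. They were chosen by read counts, because Wnt3 RNA had been seen to collapse in proximal organoids with a Cdx2 guide, so the values of proximal Cdx2-sgRNA against proximal scramble-sgRNA organoids selected the set and are given below as a description, with no test. The study asked how loss of Cdx2, an intestinal transcription factor, acts on colon organoids with and without added niche factors. Organoids came from the proximal or distal colon of female mice aged 8 weeks, each heterozygous for a Cre-inducible BrafV600E allele and for a tdTomato reporter, with no Cre given, so that these alleles were shared by controls and edited organoids. They received lentiviral Cas9 with a scramble-sgRNA (control) or a Cdx2-sgRNA, and in month 4 of culture, after 2 days in WENR-plus medium (Wnt3a, EGF, Noggin and R-spondin 1), spent a further 3 days either there or in WENR-minus, which lacks these factors. This gave 8 groups of 2 libraries, 1 from each of 2 mice. Each Cdx2-sgRNA culture was a clone grown from a single cell with frameshifts in both alleles, whereas no such step was stated for the scramble-sgRNA cultures, so guide and clone cannot be told apart.

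Wnt proteins are secreted, lipid-carrying signals of short range. Inside the producing cell the enzyme Porcn attaches a fatty acid to a conserved serine and the carrier Wls takes the protein to the surface. Outside, the lipid fits into a groove of a Frizzled receptor, and with the co-receptors Lrp5 or Lrp6 the ligand stabilises β-catenin, which acts on genes through TCF/LEF factors. R-spondins, through Lgr receptors, hold back Rnf43 and Znrf3, which remove Frizzled from the surface. Wnt3, Wnt3a, Wnt7b, Wnt9a, Wnt9b and Wnt10a are known mostly as ligands of the β-catenin branch, and Wnt5a and Wnt11 as ligands of branches that do not use it. In the small intestine Wnt3 comes from Paneth cells next to the stem cells. The colon lacks classical Paneth cells, and fibroblasts under the crypt supply much of its Wnt.

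The serine to which the fatty acid is bound lies in the part of the protein that Wnts share most closely, so the coding sequence there shows how far the 10 genes can be told apart by reads. The 24 bases are given 5′ to 3′ from the GENCODE vM21 transcripts for the ligands on which the results turn, with the serine codon in capitals.
Wnt3: tgccacgggttgTCCggcagctgc
Wnt3a: tgccacgggctaTCTggcagctgt
Wnt6: tgccatgggcttTCGggttcctgc
Wnt7b: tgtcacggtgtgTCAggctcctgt
Wnt9a: tgccatggtgtgTCTggctcctgc
Wnt10a: tgccacggcaccTCAggcagctgc
The serine was codon 212 of the open reading frame in Wnt3, 209 in Wnt3a, 227 in Wnt6, 213 in Wnt7b, 221 in Wnt9a and 268 in Wnt10a. All 10 genes held the site. Wnt3a differed from Wnt3 in 4 of the 24 bases, Wnt10a in 5, Wnt9a in 6, and Wnt6 and Wnt7b in 7 each. No run of 31 bases was shared between the annotated transcripts of any 2 of the 10 genes, so whole matches of that length assign a read to 1 of them.

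Read depth set what could be seen. Libraries held 12465194 to 18922143 estimated counts (median 16836530), and the 10 ligands together took 8 to 845 of them. A count of 0 in a library allows up to 3 reads, which covers counting error only. Only 5 of the 10 members, Wnt3, Wnt6, Wnt7b, Wnt9a and Wnt10a, passed the filter on low counts that left 15289 genes for the test, and a member that passed only through the group where it was high had to differ between groups. All 9 epithelial markers (Epcam, Cdh1, Krt8, Krt18, Krt19, Vil1, Cldn3, Cldn7 and Elf3) were read in every library, with at least 1073 reads each. They moved with the medium, as 6 of the 9 fell in WENR-plus in proximal scramble-sgRNA, 8 in distal scramble-sgRNA, 3 in proximal Cdx2-sgRNA and 8 in distal Cdx2-sgRNA organoids, where 17.0, 26.4, 6.40 and 33.1% of all genes were called in either direction. For the guide in distal organoids (5.25% of all genes called in WENR-minus, 0.262% in WENR-plus) and for the region (6.08 and 1.75%) 0 of the 9 were called. Their sum was 12800 to 13600 CPM in proximal Cdx2-sgRNA and 15400 to 15900 CPM in proximal scramble-sgRNA WENR-minus organoids, and 4390 to 5860 and 5500 to 5690 CPM in WENR-plus. In WENR-minus the markers did not move together, with Epcam at 476 and 1830 CPM, Cdh1 at 1330 and 1370 CPM, and Krt19 at 6500 and 4300 CPM. Their part in the ligand values was not tested. Of 13 markers of stromal, vessel and blood cells, 6 never exceeded 3 reads, among them the fibroblast genes Dcn and Lum (0 reads in all libraries), and the 13 summed to at most 2.92 CPM in a library (CPM is the count scaled to library size). In such bulk samples, fewer cells of a type and less RNA per cell cannot be told apart.

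Cdx2, the targeted gene, was read in all 16 libraries. In proximal scramble-sgRNA organoids it gave 3269 and 2897 reads in WENR-minus, then 2964 and 2148 in WENR-plus. In proximal Cdx2-sgRNA organoids it gave 995 and 1343 reads in WENR-minus, then 515 and 630 in WENR-plus, below all 4 controls. In distal organoids the guides overlapped in WENR-minus (1461 and 1535 reads with the scramble-sgRNA, 1493 and 1029 with the Cdx2-sgRNA). In distal WENR-plus both edited libraries (1086 and 949) lay below both controls (1534 and 1263). A frameshift need not remove the RNA, so these reads do not measure loss of the protein.

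**Figure D1:**
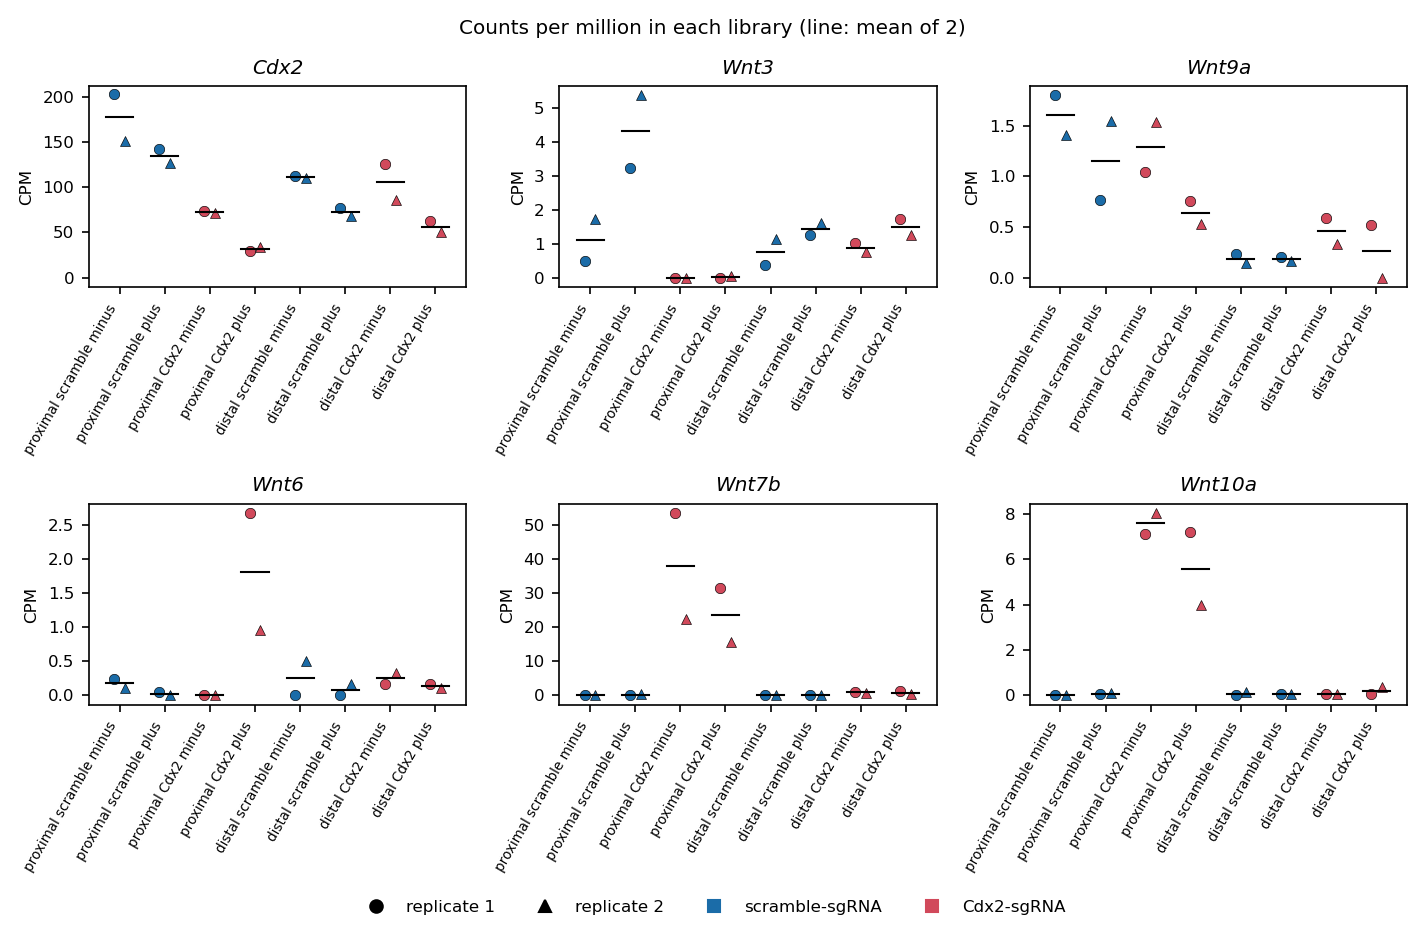
CPM (TMM-scaled, linear axes that differ between panels) of Cdx2 and of the 5 Wnt ligands that passed the filter, in each of the 16 libraries. Circles and triangles are replicates 1 and 2, blue is scramble-sgRNA, red is Cdx2-sgRNA, and lines are means of 2. Wnt3 lies at 0 to 0.0529 CPM in the 4 proximal Cdx2-sgRNA libraries, in which Wnt7b lies between 15.7 and 53.6 CPM and Wnt10a between 3.97 and 8.04 CPM.

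The ligands present differed most between proximal Cdx2-sgRNA organoids and all other groups. Per transcript length, as TPM (a length-corrected share of all transcripts), the 10 genes summed to 14.2 to 41.8 TPM in the 4 proximal Cdx2-sgRNA libraries and to 0.226 to 4.07 TPM in the other 12. In those 4 libraries Wnt7b made up 47.0 to 75.9% of the sum and Wnt10a 20.3 to 49.4%, whereas Wnt3 made up at most 0.183%. In proximal scramble-sgRNA organoids Wnt3 and Wnt9a led, with Wnt3 at 17.5 and 48.1% of the sum in WENR-minus and at 69.1 and 69.0% in WENR-plus. In distal scramble-sgRNA organoids Wnt3 took the largest share in all 4 libraries, 35.9 to 76.2%. The lowest of these libraries held 8 reads over the 10 genes, so its shares rest on few reads. This description includes the contrast by which the genes were chosen.

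**Figure D2:**
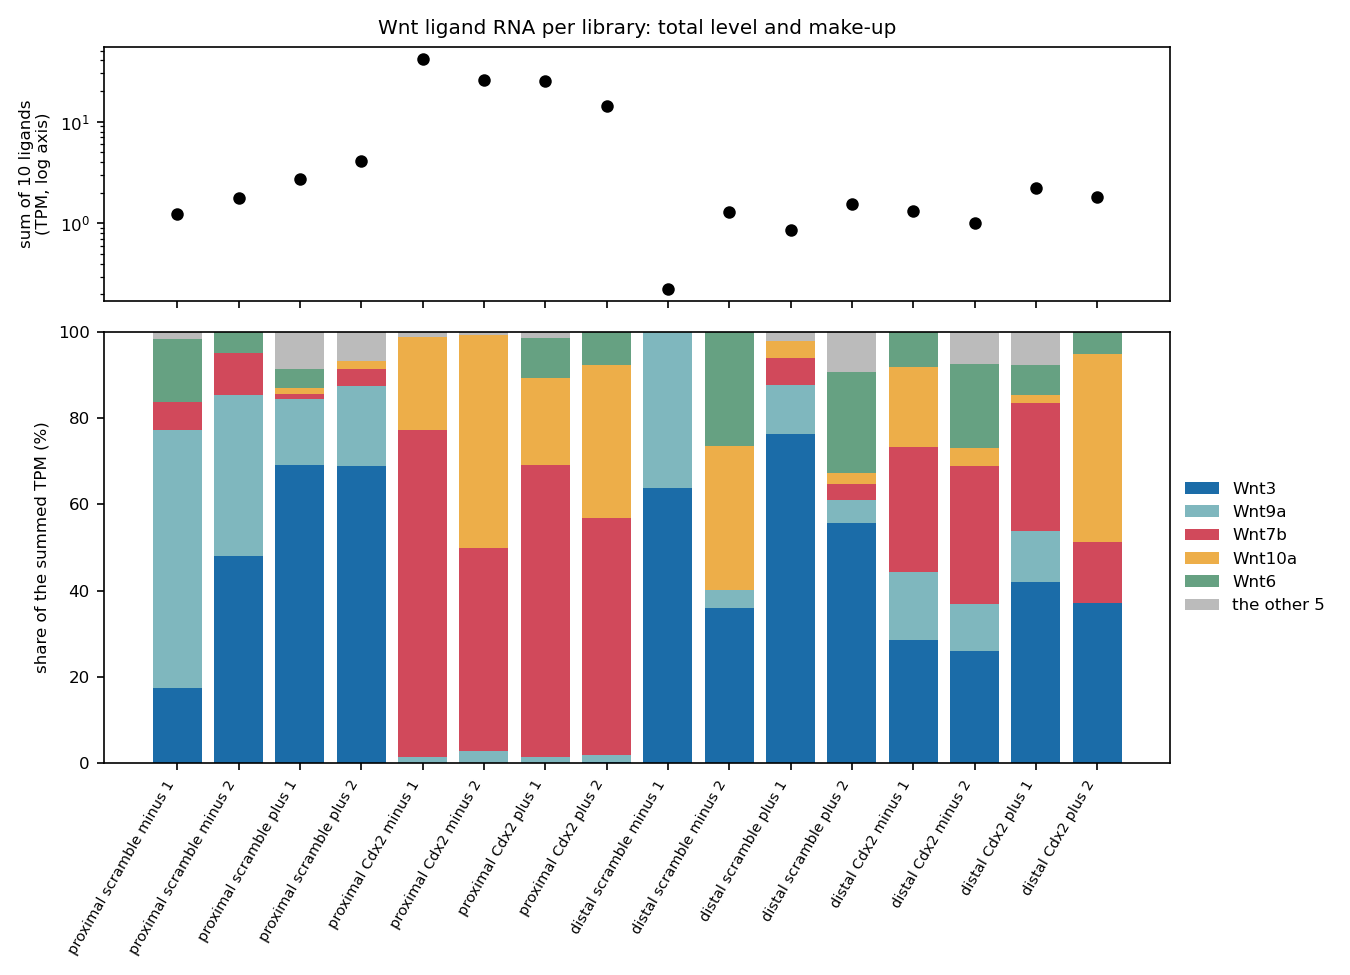
The upper panel gives the summed TPM of the 10 ligands on a log axis for each library, and the lower panel the share of each ligand in that sum. The 4 proximal Cdx2-sgRNA libraries sit between 14.2 and 41.8 TPM, above the other 12 (at most 4.07 TPM), and are filled by Wnt7b and Wnt10a, with Wnt3 absent or at most 0.183%.

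The order of the ligands by mean TPM shows this group by group. In proximal scramble-sgRNA WENR-minus organoids Wnt9a stood at 0.70 ± 0.061 TPM (SD, n = 2) and Wnt3 at 0.532 ± 0.445 TPM, and their libraries overlapped. In WENR-plus Wnt3 stood first at 2.35 ± 0.652 TPM, with both libraries above Wnt9a at 0.585 ± 0.239 TPM. Proximal Cdx2-sgRNA organoids had Wnt7b first and Wnt10a second in both media, which overlapped in WENR-minus (21.9 ± 13.9 and 10.8 ± 2.56 TPM) and not in WENR-plus (12.3 ± 6.4 and 5.04 ± 0.0429 TPM). In distal scramble-sgRNA organoids Wnt3 stood first at 0.304 ± 0.226 TPM in WENR-minus and at 0.757 ± 0.148 TPM in WENR-plus. In WENR-minus its libraries overlapped with those of Wnt10a (0.215 ± 0.304 TPM, at most 2 reads) and Wnt6 (0.171 ± 0.242 TPM). In distal Cdx2-sgRNA organoids Wnt7b (0.349 ± 0.0407 TPM) and Wnt3 (0.316 ± 0.082 TPM) overlapped in WENR-minus, and in WENR-plus Wnt3 stood at 0.805 ± 0.19 TPM and Wnt7b at 0.457 ± 0.287 TPM, close to Wnt10a at 0.415 ± 0.527 TPM. In replicate 2 of that group Wnt10a took the largest share of the sum, 43.7% against 37.2% for Wnt3.

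Wnt3 (chromosome 11, 103774150 to 103817957, plus strand, GRCm38) was read from its only annotated transcript, Wnt3-201. Proximal scramble-sgRNA organoids gave 8 and 33 reads in WENR-minus, then 68 and 91 in WENR-plus. Proximal Cdx2-sgRNA organoids gave 0 and 0 reads in WENR-minus, then 0 and 1 in WENR-plus. Distal scramble-sgRNA organoids gave 5 and 16 reads in WENR-minus, then 25 and 30 in WENR-plus, and distal Cdx2-sgRNA organoids gave 12 and 9, then 30 and 24. Wnt3 was therefore at or under the floor of 3 reads in the 4 proximal Cdx2-sgRNA libraries and above it in each of the other 12. With 3 reads taken as the level of the edited organoids, its mean CPM was at least 5.81-fold lower in proximal Cdx2-sgRNA than in proximal scramble-sgRNA organoids in WENR-minus, and at least 26.0-fold lower in WENR-plus. The first bound fell to 2.60-fold without replicate 2 of the scramble-sgRNA WENR-minus group (1.72 CPM) and was 9.02-fold without replicate 1 (0.496 CPM). These folds come from the contrast that chose the genes.

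In distal organoids, where the rule did not look, Wnt3 did not differ between guides beyond its error. The log2 fold change of Cdx2-sgRNA over scramble-sgRNA was 0.20 (SE 0.75, edgeR quasi-likelihood adjusted p = 0.91) in WENR-minus. With niche factors it was 0.06 (SE 0.68, edgeR adjusted p = 1.0). Reads of the guides overlapped in both media. Errors of this size leave room for sizeable differences in either direction.

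Wnt3 was higher with niche factors in each of the 3 kinds of culture that expressed it, and in none did reads of the media overlap. In proximal scramble-sgRNA organoids the mean was 1.11 ± 0.865 CPM in WENR-minus and 4.32 ± 1.51 CPM in WENR-plus (SD, n = 2), a log2 fold change of 1.94 (SE 0.69, unadjusted p = 0.0183, edgeR adjusted p = 0.0589), which missed the threshold of 0.05. With replicate number, which marks the mouse, as a block the call was made (log2 fold change 2.02, edgeR adjusted p = 0.0355), and DESeq2 also called it (adjusted p = 0.0388). Leaving out each of its 4 libraries in turn moved the value between 1.30, without replicate 1 of WENR-minus, and 3.04, without replicate 2 of WENR-minus (edgeR adjusted p from 0.0355 to 0.301). In distal organoids the log2 fold change was 0.89 (SE 0.72, edgeR adjusted p = 0.354) with the scramble-sgRNA and 0.75 (SE 0.72, edgeR adjusted p = 0.42) with the Cdx2-sgRNA. Averaged over both regions of scramble-sgRNA organoids, a contrast added after the data had been seen, it was 1.42 (edgeR adjusted p = 0.0359), and 26.1% of all tested genes were called in that contrast. The medium effect was not shown to differ between proximal and distal scramble-sgRNA organoids (difference 1.05, SE 0.99, edgeR adjusted p = 0.813).

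Between the regions of scramble-sgRNA organoids, the reads of Wnt3 separated in WENR-plus alone. In WENR-plus both proximal libraries (68 and 91 reads) lay above both distal ones (25 and 30), with a log2 fold change of 1.59 (SE 0.68, unadjusted p = 0.0416, edgeR adjusted p = 0.323). In WENR-minus the regions overlapped (0.53, SE 0.72, edgeR adjusted p = 0.691). Neither difference passed the test.

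The sequence ahead of Wnt3 is shown because Wnt3 is the gene by which the set was chosen. The 225 bases at chr11:103773925-103774149 (GRCm38.p6, plus strand, RefSeq) end just before the annotated gene. Capitals mark CTTTG, the core of TCF/LEF sites.
Wnt3: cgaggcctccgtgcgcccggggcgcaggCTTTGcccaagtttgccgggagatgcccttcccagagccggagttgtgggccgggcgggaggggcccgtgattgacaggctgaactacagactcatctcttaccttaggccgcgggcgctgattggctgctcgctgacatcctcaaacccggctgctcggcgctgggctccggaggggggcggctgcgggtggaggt
The stretch held 68.9% G and C and 20 CpG pairs, with 1 match to CTTTG on either strand (CAAAG on the reverse). It held no TTTAT or ATAAA, the core that Cdx factors prefer. Over the 250 bases ahead of each start site, CTTTG on either strand was found in 48.6% of the 32851 RefSeq promoters and TTTAT in 37.3%. Of the 7 members with an entry (Wnt3, Wnt3a, Wnt4, Wnt6, Wnt9a, Wnt9b and Wnt11), 3 held CTTTG (Wnt3, Wnt9b and Wnt11) and 1 held TTTAT (Wnt11). A match is no evidence of binding, and a missing match says only that these letters are not in this window.

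The genes on either side of Wnt3 were read in all groups, except Wnt9b. Nsf, a vesicle fusion ATPase on the minus strand whose 3′ end lies 3824 bases beyond Wnt3, stood at 46.2 CPM in proximal scramble-sgRNA and 23.6 CPM in proximal Cdx2-sgRNA WENR-plus organoids, and at 55.3 and 51.7 CPM in WENR-minus. Gosr2, a Golgi vesicle protein on the other side, stood at 30.0 and 26.7 CPM in WENR-plus and at 48.1 and 38.3 CPM in WENR-minus. Wnt9b, which lies 24328 bases from Wnt3, had at most 2 reads in a library.

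Paneth cells are a known source of Wnt3 in the small intestine, so 12 markers of Paneth cells and of the deep crypt secretory cells of the colon were read beside it. Their summed level was 1920 to 2400 CPM in proximal scramble-sgRNA and 23.8 to 67.6 CPM in proximal Cdx2-sgRNA WENR-minus organoids. In WENR-plus it was 764 to 1320 CPM and 739 to 1050 CPM. That last sum came almost wholly from Mmp7, a matrix protease (874 CPM), while the goblet cell mucin Muc2 (264 against 4.22 CPM), the secretory lineage factor Atoh1 (32.2 against 0.137 CPM), Kit (64.0 against 0.692 CPM) and Ang4 (95.3 against 0.443 CPM) were low. The Paneth cell defensins Defa24 and Defa17 had at most 5 reads in any library. In distal organoids the sum was 1150 to 1810 CPM (WENR-minus) and 943 to 1450 CPM (WENR-plus) with the scramble-sgRNA, and 956 to 2990 and 670 to 3140 CPM with the Cdx2-sgRNA. The part of this cell lineage in the Wnt3 values was not tested.

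Wnt9a (chromosome 11, 59306928 to 59333552, plus strand) differed by region. Proximal scramble-sgRNA organoids gave 29 and 27 reads in WENR-minus, then 16 and 26 in WENR-plus. Distal scramble-sgRNA organoids gave 3 and 2, then 4 and 3. All 4 proximal libraries lay above all 4 distal ones. Its mean CPM was at least 7.19-fold higher in the proximal organoids in WENR-minus, with 3 reads as the distal level, and 6.37-fold higher in WENR-plus (4.23-fold without replicate 2 of the proximal group).

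In single media the Wnt9a difference missed the threshold. The log2 fold change was 3.05 (SE 1.01, unadjusted p = 0.0113, edgeR adjusted p = 0.0807) in WENR-minus, where DESeq2 called it (adjusted p = 0.0351), and 2.61 (SE 0.97, unadjusted p = 0.0206, edgeR adjusted p = 0.241) in WENR-plus. Averaged over both media, a contrast added after the data had been seen, it was 2.83 (SE 0.70, edgeR adjusted p = 0.0225), in a comparison that called 6.44% of all genes. The libraries of both media come from the same 2 cultures of each region, so this average does not add animals.

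Unlike Wnt3, Wnt9a was still read in proximal Cdx2-sgRNA organoids, with 14 and 29 reads in WENR-minus, then 13 and 10 in WENR-plus. Against the proximal scramble-sgRNA organoids these overlapped in WENR-minus and lay lower in WENR-plus, at 0.803-fold and 0.557-fold of their mean CPM (the latter 0.839-fold without replicate 2 of the scramble-sgRNA group). Distal Cdx2-sgRNA organoids gave 7 and 4, then 9 and 0 reads. Wnt3a, the neighbour of Wnt9a on chromosome 11 (59248033 to 59290752, minus strand) and the ligand added to WENR-plus medium as protein, had 0 reads in all 16 libraries, which allows up to 0.0113 CPM over the 264479993 counts of all libraries.

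Wnt7b (chromosome 15, 85535437 to 85582473, minus strand), known for its roles in lung and in vessel growth, was the most abundant ligand of the series. Proximal Cdx2-sgRNA organoids gave 722 and 428 reads in WENR-minus, then 543 and 297 in WENR-plus. Proximal scramble-sgRNA organoids gave 3 and 5, then 1 and 5. The mean CPM was 171-fold higher with the Cdx2-sgRNA in WENR-minus (38.1 ± 21.9 against 0.223 ± 0.0528 CPM) and 137-fold higher in WENR-plus (23.6 ± 11.2 against 0.172 ± 0.175 CPM). Without replicate 2 of the scramble-sgRNA WENR-plus group, the control library of 5 reads, the fold in WENR-plus was 494, and without replicate 1, the control library of 1 read, it was 79.7. In WENR-minus it was 101 without replicate 1 of the Cdx2-sgRNA group. These values belong to the contrast that chose the genes and carry no test. Of all its reads, 51.3% were assigned to the transcript Wnt7b-202 and 34.9% to Wnt7b-201. Its medium difference in proximal Cdx2-sgRNA organoids did not pass the test (edgeR adjusted p = 0.433), and reads of the media overlapped.

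Distal organoids showed the same direction at a far lower level. Distal Cdx2-sgRNA organoids gave 12 and 9 Wnt7b reads in WENR-minus, then 21 and 9 in WENR-plus, against 0 and 0, then 2 and 2, with the scramble-sgRNA. All 4 edited libraries lay above all 4 controls, and with 3 reads as the control level the mean CPM was at least 3.97-fold higher in WENR-minus and at least 5.39-fold higher in WENR-plus (3.06-fold without replicate 1 of the edited group). The test called the difference in WENR-minus (fitted log2 fold change 6.90, SE 1.60, edgeR adjusted p = 0.0259), and this fitted value depends on how counts of 0 are treated. In WENR-plus it was not called (2.92, SE 0.87, unadjusted p = 0.00712, edgeR adjusted p = 0.378). The call in WENR-minus was lost when any 1 of its 4 libraries was left out, whichever culture it came from (adjusted p from 0.0812 to 0.141). Averaged over both media, added after the data had been seen, the log2 fold change was 4.91 (edgeR adjusted p = 0.0117), in a comparison that called 3.06% of all genes. The libraries of both media come from the same 2 cultures of each guide, and the fit counts them as separate. This average therefore does not add animals, and its p is likely too small. In Cdx2-sgRNA organoids Wnt7b stood 43.1-fold higher in the proximal than in the distal cultures in WENR-minus and 28.1-fold higher in WENR-plus, with no overlap of libraries, in groups that include the one used to choose the genes. Without replicate 1 of the proximal group these were 25.6-fold and 18.7-fold, and without replicate 1 of the distal group the second was 49.6-fold.

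Wnt10a (chromosome 1, 74791516 to 74804179, plus strand), known from skin, hair and tooth development, was read almost wholly in proximal Cdx2-sgRNA organoids. These gave 96 and 152 reads in WENR-minus, then 124 and 75 in WENR-plus. Proximal scramble-sgRNA organoids gave 0 and 0, then 1 and 2, so the mean CPM was at least 44.3-fold higher with the Cdx2-sgRNA in WENR-minus and at least 34.8-fold higher in WENR-plus. The 8 distal libraries held 0 to 2 reads, except 1 distal Cdx2-sgRNA WENR-plus library with 7. Unlike Wnt7b, Wnt10a gave no separation between guides in distal organoids, where the log2 fold change was 0.17 without niche factors (SE 1.30, edgeR adjusted p = 0.964) and 1.92 with them (SE 1.03, edgeR adjusted p = 0.857). Between media in proximal Cdx2-sgRNA organoids its reads overlapped (edgeR adjusted p = 0.70).

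Wnt6 (chromosome 1, 74771892 to 74785322, plus strand) ends 6193 bases ahead of Wnt10a, and the pair are transcribed in the same direction. Proximal Cdx2-sgRNA organoids gave 0 and 0 reads in WENR-minus, then 46 and 18 in WENR-plus, at least 9.49-fold higher in mean CPM with niche factors (4.99-fold without replicate 1 of WENR-plus). Wnt6 passed the filter on low counts only through this WENR-plus group, so it had to differ there, and the call by edgeR (adjusted p = 0.0258) is not read as a result. That call was lost when any 1 of the 4 libraries was left out (adjusted p from 0.0621 to 0.113). In those WENR-minus libraries, where Wnt6 had no read, its neighbour Wnt10a had 96 and 152. Proximal scramble-sgRNA organoids gave 4 and 2, then 1 and 0 Wnt6 reads, and the 8 distal libraries 0 to 7.

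The remaining members were near the limit of detection. Wnt5a (chromosome 14, 28504750 to 28527448), a ligand that acts mainly outside the β-catenin branch, had 6 and 16 reads in proximal scramble-sgRNA WENR-plus organoids and 0 in the other 14 libraries. That is at least 3.60-fold above proximal scramble-sgRNA WENR-minus and 3.96-fold above distal scramble-sgRNA WENR-plus organoids, which became 1.68-fold and 1.84-fold without the library of 16 reads, replicate 2, and 5.53-fold and 6.08-fold without the library of 6 reads, replicate 1. Wnt4 (chromosome 4), known from kidney and reproductive tract development, had 11 and 7 reads in replicate 1 of proximal Cdx2-sgRNA organoids in WENR-minus and WENR-plus and 0 in replicate 2 of both, 4 in 1 proximal scramble-sgRNA WENR-plus library, and at most 2 elsewhere. Its 2 libraries from the first mouse thus stood apart from those of the second. Wnt11 (chromosome 7) had at most 4 reads in a library and Wnt9b (chromosome 11) at most 2. None of these 4 genes nor Wnt3a passed the filter, and they carry no test.

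Across the tested comparisons few members were called. The share of all genes called by the same rule (edgeR adjusted p under 0.05 and absolute log2 fold change over 1) stands beside each count. In several comparisons some tested members were at the floor in both groups, where a call was hardly possible. Examples are Wnt7b and Wnt10a for the medium in distal scramble-sgRNA organoids, and Wnt6 and Wnt10a for the region in WENR-plus. The counts of members are therefore not read as lower than the shares of all genes. For WENR-plus against WENR-minus, 0 of 5 tested members were called in proximal scramble-sgRNA (17.0% of all genes), 0 in distal scramble-sgRNA (26.4%), 1, Wnt6, in proximal Cdx2-sgRNA (6.40%) and 0 in distal Cdx2-sgRNA organoids (33.1%). The call of Wnt6 is not set against that share, since this gene entered the test only through the group in which it was high. For Cdx2-sgRNA against scramble-sgRNA in distal organoids, 1 was called in WENR-minus, Wnt7b (5.25% of all genes), and 0 in WENR-plus (0.262%). For proximal against distal scramble-sgRNA organoids, 0 were called in WENR-minus (6.08%) and 0 in WENR-plus (1.75%). For the difference of medium effects, 0 were called between regions (0.0719%) and 0 between guides in distal organoids (0%). Of the comparisons with 0 members called by edgeR, those with unadjusted p under 0.05 were 1 (Wnt3) for the medium in proximal scramble-sgRNA (40.4% of all genes at that p), 1 (Wnt7b) for the guide in distal WENR-plus (6.36%), 2 (Wnt7b and Wnt9a) for the region in WENR-minus (26.1%) and 2 (Wnt3 and Wnt9a) for the region in WENR-plus (14.2%). There were 0 for the medium in distal scramble-sgRNA (48.9%) and distal Cdx2-sgRNA organoids (53.5%). There were also 0 for the difference of medium effects between regions (9.83%) and between guides in distal organoids (9.53%). In the same 8 comparisons DESeq2 called 1 (Wnt3) for the medium in proximal scramble-sgRNA and 1 (Wnt9a) for the region in WENR-minus, and 0 in the other 6. The share of all genes called by DESeq2 is not given, so nothing is read from these counts.

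**Figure D3:**
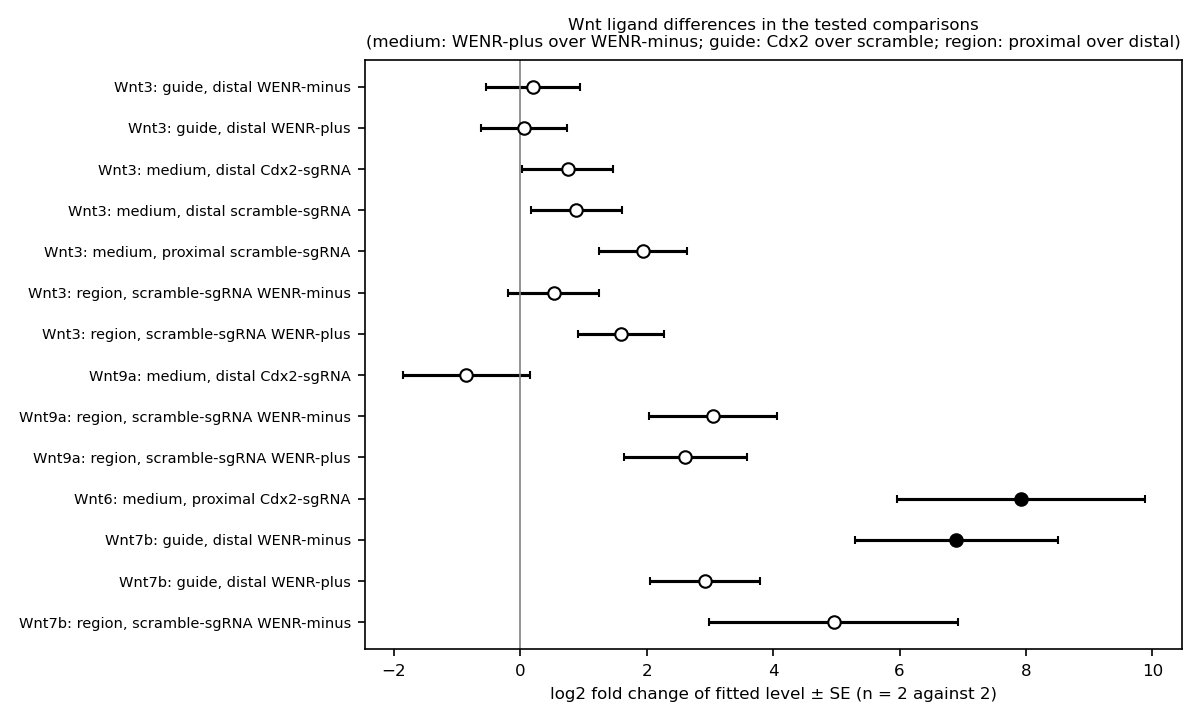
Fitted log2 fold changes with their standard errors for member differences above the floor with an unadjusted p under 0.05 or a call under any alternative, and for all of Wnt3, 2 libraries against 2. Filled points passed the threshold (Wnt6 for the medium in proximal Cdx2-sgRNA, 7.92, and Wnt7b for the guide in distal WENR-minus, 6.90), open points did not. Both filled points compare with a group at 0 reads, so their size depends on the treatment of zeros, and Wnt6 was tested only because its reads in that WENR-plus group passed the filter.

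Of the 9 Wnt genes outside the set, Wnt1, Wnt2, Wnt2b, Wnt8a and Wnt16 had 0 reads in all libraries, and Wnt5b and Wnt8b at most 3. Wnt7a, the closest relative of Wnt7b, had 26 and 36 reads in proximal Cdx2-sgRNA WENR-minus and 26 and 7 in WENR-plus organoids, against 2 and 6, then 0 and 0, with the scramble-sgRNA. In distal organoids it had 17 and 9, then 4 and 6, against 4 and 0, then 0 and 1. In each of these 4 settings both edited libraries lay above both controls, but the media of a region share their cultures. In distal organoids the Wnt7a difference was not called in WENR-minus or WENR-plus (5.25 and 0.262% of all genes called). The proximal values belong to the contrast that chose the ligands. Wnt10b, the closest relative of Wnt10a, went the other way, with 16 and 0, then 10 and 9 reads in proximal scramble-sgRNA and 0 in all 4 proximal Cdx2-sgRNA libraries.

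The genes of the machinery that loads and releases Wnts passed the filter on low counts, although Porcn had at most 10 reads in a proximal scramble-sgRNA WENR-minus library. All 8 of its genes were tested, and between media 0 were called in scramble-sgRNA organoids of either region and in distal Cdx2-sgRNA organoids, with 1 higher in proximal Cdx2-sgRNA organoids (17.0, 26.4, 33.1 and 6.40% of all genes, in that order). That was the glypican Gpc4, at 43.4 CPM in WENR-plus and 16.4 CPM in WENR-minus (log2 fold change 1.41, edgeR adjusted p = 0.0016). For the guide in distal organoids and for the region 0 of the 8 were called in either medium (5.25 and 0.262% of all genes for the guide, 6.08 and 1.75% for the region, WENR-minus first). Porcn, the enzyme that acts on the serine shown above, stood at 7.14 CPM in proximal Cdx2-sgRNA against 0.415 CPM in proximal scramble-sgRNA WENR-minus organoids, and at 6.44 against 1.16 CPM in WENR-plus. This belongs to the contrast that chose the ligands, in which 21.2% of all genes were called in WENR-minus and 15.9% in WENR-plus, and nothing is read from it.

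Genes that respond to Wnt showed the medium plainly. Of 19 tested feedback and target genes, 15 rose in WENR-plus in proximal scramble-sgRNA, 13 in distal scramble-sgRNA, 9 in proximal Cdx2-sgRNA and 13 in distal Cdx2-sgRNA organoids, and 0 fell. Their median log2 fold changes were 2.20, 2.63, 1.55 and 2.77, beside 0.06, 0.11, 0.03 and 0.10 over all genes tested. The stem cell receptor Lgr5 rose from 6.64 to 80.2 CPM in proximal scramble-sgRNA organoids (log2 fold change 3.58, edgeR adjusted p = 0.00243) and from 4.00 to 146 CPM in proximal Cdx2-sgRNA organoids (5.18, edgeR adjusted p = 0.00192). The tumour necrosis factor receptor family member Tnfrsf19 rose from 0.406 to 16.4 CPM and from 0.344 to 12.1 CPM in the same organoids. The crypt stem cell factor Ascl2 rose in all 4 kinds of culture, from 0.589 to 6.82 CPM in distal scramble-sgRNA organoids.

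Of 15 tested receptors and co-receptors, 1 was called higher and 1 lower in WENR-plus in proximal scramble-sgRNA (17.0% of all genes), 2 and 1 in distal scramble-sgRNA (26.4%), 0 and 1 in proximal Cdx2-sgRNA (6.40%) and 2 and 3 in distal Cdx2-sgRNA organoids (33.1%), shares close to or below those of all genes. Fzd5, the receptor of many epithelial Wnt responses, fell in WENR-plus in all 4 kinds of culture, from 107 to 22.8 CPM in proximal scramble-sgRNA and from 85.4 to 21.0 CPM in proximal Cdx2-sgRNA organoids. Fzd6 rose in scramble-sgRNA organoids of both regions and in distal Cdx2-sgRNA organoids. Of the 4 tested genes of the R-spondin arm, Lgr5, Rnf43 and Znrf3, which are counted among the feedback and target genes above, rose in WENR-plus in every kind of culture. The fourth, Lgr4, fell in distal scramble-sgRNA and in Cdx2-sgRNA organoids of both regions, from 447 to 146 CPM in distal Cdx2-sgRNA organoids (log2 fold change -1.62, edgeR adjusted p = 1.02e-05). The 4 R-spondin genes and Lgr6 did not pass the filter. Of 3 tested secreted antagonists, Wif1, which binds Wnts directly, fell in WENR-plus in scramble-sgRNA organoids of both regions and in distal Cdx2-sgRNA organoids. Notum, which takes the fatty acid off Wnts, rose in distal organoids with the scramble-sgRNA (log2 fold change 2.63, edgeR adjusted p = 0.00977) and with the Cdx2-sgRNA (2.77, edgeR adjusted p = 0.0225). These calls rest on few reads, at most 16 in WENR-plus against 2 in WENR-minus with the scramble-sgRNA, and 6 against 1 with the Cdx2-sgRNA. Trabd2b, a protease that cuts Wnts, rose in distal scramble-sgRNA organoids (3.53, edgeR adjusted p = 0.015), with at most 19 reads in WENR-plus against 1 in WENR-minus.

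**Figure D4:**
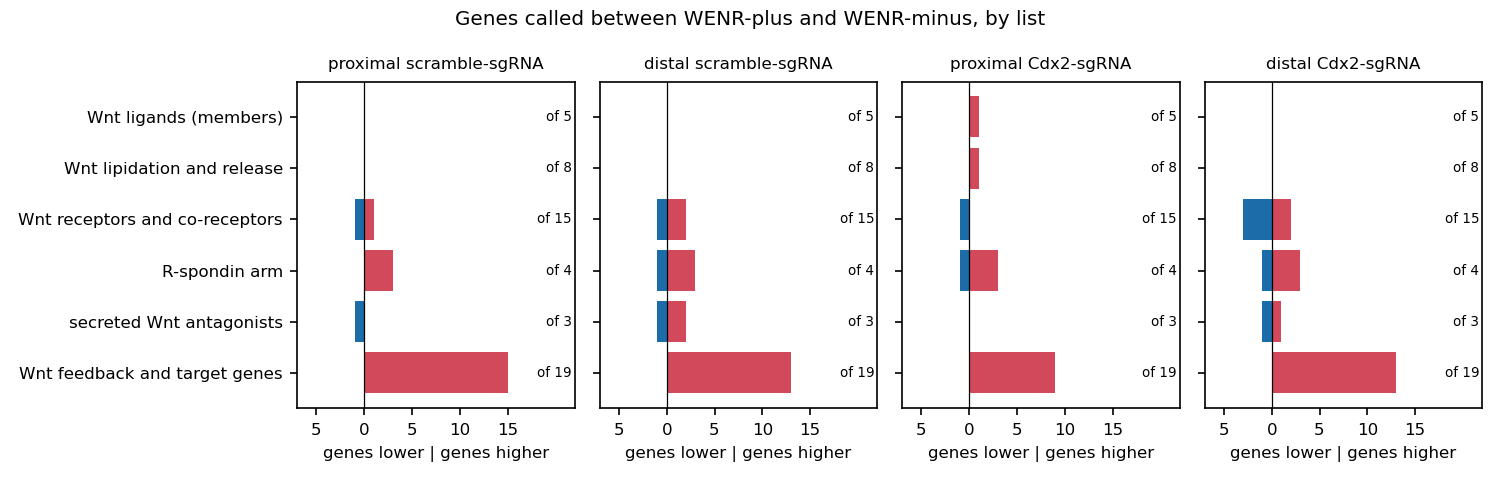
Number of genes called higher (red, to the right) or lower (blue, to the left) in WENR-plus than in WENR-minus in each kind of organoid, by list, with the number tested at the right edge. Between 9 and 15 of 19 feedback and target genes rose. Of all genes tested, 17.0% in proximal scramble-sgRNA, 26.4% in distal scramble-sgRNA, 6.40% in proximal Cdx2-sgRNA and 33.1% in distal Cdx2-sgRNA organoids were called in either direction.

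By region, a few genes of the pathway differed between scramble-sgRNA organoids, most of those named here being higher in the proximal ones. The receptor Fzd2 was at 1.59 against 0 CPM in WENR-minus (edgeR adjusted p = 0.0169) and at 6.29 against 0.213 CPM in WENR-plus (edgeR adjusted p = 0.0351). Fzd10 was at 6.90 against 0.0538 CPM in WENR-plus (edgeR adjusted p = 0.0216). The nuclear effector Lef1 stood at 26.4 against 0.183 CPM in WENR-plus (log2 fold change 7.12, edgeR adjusted p = 0.0063) and the feedback inhibitor Nkd1 at 6.88 against 0.208 CPM (5.00, edgeR adjusted p = 0.0173), and both were also called in WENR-minus. In these comparisons Fzd2, Fzd10, Lef1 and Nkd1 had at most 7 reads in a distal library. They may have passed the filter on low counts only through proximal groups where they were high, so their calls are not read as results. Fzd5 was lower in proximal than in distal organoids in WENR-plus (22.8 against 47.8 CPM, log2 fold change -1.07, edgeR adjusted p = 0.00399). Of the 19 feedback and target genes 3 were higher in WENR-minus, where 6.08% of all genes were called in either direction, 2 were higher in WENR-plus (1.75%), and 0 were lower in either medium. Lef1 and Nkd1 are among those counted in both media.

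Within the contrast that chose the ligands, targets went both ways and are given as values only. In WENR-plus Lef1 stood at 0.851 CPM in proximal Cdx2-sgRNA against 26.4 CPM in proximal scramble-sgRNA organoids, Nkd1 at 0.0793 against 6.88 CPM, and the Wnt inhibitor Apcdd1 at 0.159 against 24.4 CPM. Notum, which removes the fatty acid from Wnts, stood at 5.88 against 0.50 CPM, and Rnf43 at 339 against 115 CPM. The receptor Fzd10 had 0 reads in proximal Cdx2-sgRNA organoids in both media. In distal organoids 1 of the 19 targets was called in WENR-minus, where 5.25% of all genes were, the adhesion receptor Cd44 (64.3 against 20.9 CPM, edgeR adjusted p = 0.0205), and 0 were called in WENR-plus.

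Among 12523 tested genes with a mean of at least 1 CPM, the 5 whose log2 CPM followed Wnt3 most closely over the 16 libraries were Dlc1 (Pearson r = 0.951), Gm20275 (0.940), Gm36945 (0.937), Unc5a (0.935) and Chd7 (0.933). These are correlations over libraries that share cultures and depth, and are given as a description. Dlc1 stood at 4.38 CPM in proximal scramble-sgRNA and 0.0819 CPM in proximal Cdx2-sgRNA WENR-plus organoids. Unc5a, a netrin receptor, stood at 7.98 and 0.369 CPM. Chd7, a chromatin remodeller, followed at a higher level and was not lost, at 171 and 30.5 CPM. Gm20275 is annotated as an antisense gene and Gm36945 as a long intergenic RNA. None of the 5 lies on chromosome 11 with Wnt3.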

How the data were processed

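RNA-seq of 16 mouse colon organoid libraries was analysed. The authors quantified reads with Salmon (1.1.0 in the submitters' notes) on GENCODE vM23, with DESeq2 as their test. Each deposited table gives estimated counts per transcript, unscaled between libraries, and TPM over all transcripts from the authors' Salmon run. Identifiers of 139864 of 140748 transcripts were found in GENCODE vM21 (GRCm38, an earlier release) and summed to genes; unmatched ones held 0.257 to 0.509% of a library and mitochondrial ribosomal RNA 15.4 to 28.0%. Estimated counts were rounded. Genes were filtered with filterByExpr, scaled by TMM and fitted over all libraries, 1 coefficient per group (8 residual degrees of freedom), with edgeR 4.0.16 (glmQLFit, glmQLFTest, R 4.3.3), and adjusted by Benjamini-Hochberg over all genes in each of 10 tested comparisons. DESeq2 1.42.0 was an alternative.

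Folds of CPM use group means, with 3 reads per library as the level of a group that never exceeded 3. Each was recomputed without each library in turn, an alternative added after the data had been seen, and given where it moved by over 1.5 times. The serine codon was found in the longest open reading frame from an ATG.

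Members, gene lists and tests were chosen with earlier results of these data known. Named genes were Cdx2, all members, other Wnt genes by reads, up to 3 called genes of largest change per list and comparison, and the 5 genes most like Wnt3 (prior count 2); the pathway genes given for the proximal guide contrast, the marker genes and the neighbours on the chromosome, and which called genes of a list are named without values, were chosen after values were seen. The replicate number marks the mouse per the study's methods. Deviations from group means of same-numbered libraries correlated at -0.059 to 0.589 over 28 pairs of groups (over 0.1 in 9), and at 0.281 to 0.589 for the 4 pairs that share a culture. Both libraries of a culture share its clone, so p-values measure the spread between 2 cultures per group. The scripts were tested on simulated data.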

Additional observations from a re-analysis of the deposited data

Results flagged for a closer look

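Wnt6 values of the media lay in opposite directions in the cultures of proximal scramble-sgRNA and proximal Cdx2-sgRNA organoids. In proximal Cdx2-sgRNA organoids both cultures had more Wnt6 in WENR-plus, by 1.81 CPM on average (0 and 0 reads against 46 and 18). In proximal scramble-sgRNA organoids both had less, with a mean difference of -0.152 CPM (4 and 2 reads against 1 and 0, log2 fold change -2.43, edgeR adjusted p = 0.326), which did not pass the test, with WENR-plus under the floor of 3 reads. Against that floor WENR-minus stood at least 1.1-fold higher, and at 0.65-fold without its replicate 1. Clearing the floor thus rests on that library, while the few reads of both cultures ran the same way. Wnt6 passed the filter on low counts only through the proximal Cdx2-sgRNA WENR-plus group, so its difference there is not read as a result. The difference between these medium effects was not tested.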

How the results depend on the processing

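No member passed a minimum of 10 counts in every library, so that alternative gives no value. The number of members called went from 0 to 1 for the medium in proximal scramble-sgRNA organoids (Wnt3) with DESeq2, with no filter on low counts and with a replicate block for the mouse (adjusted p = 0.0355). The replicate block changed no other call. With only the libraries of the comparison the count went from 1 to 0 for the medium in proximal Cdx2-sgRNA and the guide in distal WENR-minus organoids, where fewer genes and libraries enter, and from 0 to 1 (Wnt9a, adjusted p = 0.04) for the region in WENR-minus. For that region comparison DESeq2 called 1 and no filter 2 (Wnt7b and Wnt9a), and no filter called 1 (Wnt7b) for the guide in distal WENR-plus. The cause was not tested, and the share of all genes called under each alternative is not given. DESeq2 gave Wnt6 no adjusted p for the medium in proximal Cdx2-sgRNA organoids.

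Leaving out each library in turn gave 0 to 1 members for the medium in proximal scramble-sgRNA organoids (Wnt3 without replicate 2 of WENR-minus, log2 fold change 3.04, adjusted p = 0.0355, of a range of 1.30 to 3.04 and 0.0355 to 0.301), 0 to 0 in proximal Cdx2-sgRNA organoids, 0 to 1 in distal Cdx2-sgRNA organoids (Wnt9a without replicate 1 of WENR-plus, -6.00, which leaves a library of 0 reads) and 0 to 0 for the guide in distal WENR-minus. The lone library of such a group is assumed to vary like the others. Small differences changed sign. Wnt3 for the guide in distal organoids ranged from -0.38 to 1.18 in WENR-minus and from -0.17 to 0.30 in WENR-plus, Wnt3 for the region in WENR-minus from -0.63 to 1.52, and Wnt9a for the medium in distal Cdx2-sgRNA organoids from -6.00 to 0.12. RLE size factors, length-scaled counts and no fold change threshold changed no count of members called. 5 of 10 members were too low to test.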
